A study of Mus musculus with 38 samples.

Results

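Alveolar type 1 cells are the broad, thin epithelial cells of the gas-exchange surface, and 9 genes that mark them were followed here through hypoxia and the return to normal oxygen: Clic5, Aqp5, Pdpn, Ager, Gprc5a, Igfbp2, Spock2, Hopx and Rtkn2. They were chosen by name, through the gene symbol of the array's annotation, with earlier results of these data known. All 9 were measured, on 16 of the 45218 features used, among 19087 named genes. Clic5, Gprc5a and Pdpn had 2 features each, Spock2 and Rtkn2 had 3 each, and the other members had 1.

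Alveolar type 1 cells cover most of the alveolar surface and lie against the capillary, so that oxygen passes through their cytoplasm into the blood. After injury they can arise from alveolar type 2 cells, the cuboidal cells that make surfactant and then divide. Their identity is kept by transcription factors that include NKX2-1 and the TEAD partners of YAP and TAZ. Their flat shape rests on a cytoskeleton and matrix, and some of the genes described here encode proteins of these. They are not cells of the vessel wall, but in a lung section they lie next to it.

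The study set small lung vessels of C57BL/6J mice against each other by array. The animals were 12 to 18 weeks old, had been assigned to groups at random, and have no genetic change named in their labels. Vessels inside the lung, 50 to 100 µm across on the outside, were cut from sections of 10 µm with a laser under view, so that each sample can hold some of the alveolar wall around the vessel. RNA of 1 animal in Cy3 and of 1 animal in Cy5, the array's 2 dyes, was hybridised on each of 38 arrays. Counts of mice, here and below, take each dye of each array as its own animal, which makes 76 in all. The labels used here hold no animal identifier, so whether an animal was on more than 1 array could not be checked.

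The groups were 8 mice kept for 21 days in normoxia (inspired oxygen fraction 0.21), 23 mice kept for 21 days in hypoxia (0.10), and mice that were returned to normoxia after hypoxia for 1 day (11 mice), 3 days (12), 7 days (12) or 14 days (10). Hypoxia was set against normoxia on 8 arrays, with hypoxia in each dye on 4 of them. For days 1, 3 and 7 there were 4 arrays each with hypoxia as the partner, and for day 14 there were 3, all with hypoxia in Cy3. The remaining 15 arrays paired 1 day with another.

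Each value is the log ratio between both animals of an array. The base of the logarithm is not stated, so a log ratio of 0.1 is a larger step if it is base 10 than if it is base 2, and folds are given for both. That ratios run as Cy5 over Cy3 is the usual convention and likely, but it is not settled. Over all features, array 3 of day 1 in Cy3 and hypoxia in Cy5 had a correlation of -0.39 with another array. That other was array 1 of normoxia in Cy3 and hypoxia in Cy5. Of the 4 arrays of day 1 over hypoxia, the first of these was the 1 with the members' mean above 0 (0.0482). Its orientation was not tested. A turned sign of all arrays would reverse every direction given here together, but a turned sign of 1 array would not. No brightness was analysed, so there are no absolute levels, one gene's level cannot be set against another's, and the presence of any cell type in the dissections could not be checked. The number of arrays limits the precision. In bulk tissue, fewer cells of a type and less RNA per cell cannot be told apart.

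Low oxygen acts on many genes through hypoxia-inducible factors, which bind short runs of letters near start sites, so promoters that hold such runs are shown first. The RefSeq promoters used here (build GRCm38.p6) covered 7 of the 9 members, at 9 windows, and included none for Gprc5a and Rtkn2. The 250 bases before each start were searched on both strands for ACGTG and GCGTG, the core letters of the hypoxia response element. The windows of Igfbp2 (chr1:72824230-72824479, plus strand), Aqp5 (chr15:99590778-99591027, plus strand) and Pdpn (chr4:143299565-143299814, minus strand) follow, 5′ to 3′, with each match in capitals, overlapping matches as 1 run.
Igfbp2: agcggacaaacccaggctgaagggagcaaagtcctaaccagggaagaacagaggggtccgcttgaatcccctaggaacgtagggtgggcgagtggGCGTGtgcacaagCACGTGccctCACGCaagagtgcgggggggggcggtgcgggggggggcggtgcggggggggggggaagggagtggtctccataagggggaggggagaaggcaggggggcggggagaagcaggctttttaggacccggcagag
Aqp5: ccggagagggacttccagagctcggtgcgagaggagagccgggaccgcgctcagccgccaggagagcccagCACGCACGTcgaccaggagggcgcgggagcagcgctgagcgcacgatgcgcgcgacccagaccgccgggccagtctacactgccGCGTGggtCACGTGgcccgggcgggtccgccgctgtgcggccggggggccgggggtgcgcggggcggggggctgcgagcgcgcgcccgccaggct
Pdpn: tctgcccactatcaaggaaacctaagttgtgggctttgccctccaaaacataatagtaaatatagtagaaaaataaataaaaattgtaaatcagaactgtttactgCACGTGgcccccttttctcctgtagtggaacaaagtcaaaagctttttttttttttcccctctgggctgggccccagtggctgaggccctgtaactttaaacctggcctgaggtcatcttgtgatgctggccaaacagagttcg
Each of these windows holds CACGTG, which reads ACGTG on both strands in overlap and is also the letters of an E-box. At least 1 match lay in 6 of the 9 windows and in 5 of the 7 genes (Igfbp2, Aqp5, Pdpn, Spock2 and Hopx), and in 38.6% of all 32851 promoter windows of that length. The windows of Clic5 and Ager had none, and neither did a second window of Igfbp2 (chr1:72825137-72825386, plus strand), which is not printed here. The letters GGAATG, bound by TEAD factors, were in 0 of the 9 windows and in 12.6% of all windows, and CACTTG, bound by NKX2-1, was in 0 of the 9 and in 11.6%. A match is a run of letters and not a bound site, and its absence says nothing about the factor beyond these windows.

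The comparison of hypoxia with normoxia asked what 21 days of low oxygen did in the dissected tissue. All 9 genes had a fitted log ratio above 0, and 5 of them, Clic5, Igfbp2, Aqp5, Gprc5a and Rtkn2, rose in hypoxia at an adjusted p under the threshold of 0.05 (limma, Benjamini-Hochberg over all 30653 entries). The background is that 1.35% of all entries were called higher and 3.6% were called in either direction. Since the members were chosen with earlier results of these data known, the counts beside these shares are a description. At an unadjusted p under 0.05 there were 7 of 9 members (all but Pdpn and Ager) and 16.8% of entries. The median of the 9 log ratios was 0.105, against -0.00397 over all entries, of which 45.2% lay above 0. The mean of the 9 genes was above 0 on 8 of 8 arrays, with a lowest value of 0.0374, a median of 0.124 and a highest of 0.187. All normoxia animals were on these 8 arrays, so each estimate rests on them, and the other arrays add to the estimate of spread and of the dye effect. Values on arrays are given after removal of the dye effect, and every value in the next paragraphs is hypoxia over normoxia.

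**Figure D1:**
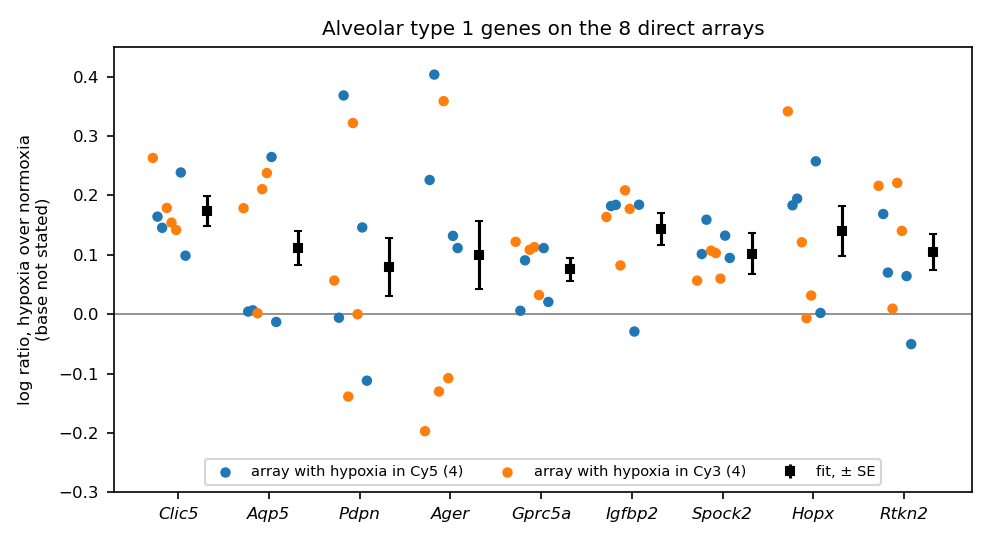
Log ratio of hypoxia over normoxia for each gene on the 8 direct arrays (vertical axis, base not stated), with arrays that carry hypoxia in Cy5 and in Cy3 in separate colours and the fitted value ± SE as a square. Clic5, Gprc5a and Spock2 lie above 0 on every array, while Pdpn and Ager spread from below -0.13 to above 0.36.

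Among the genes of the cell surface, Clic5, a chloride intracellular channel protein that links the membrane to the cortical cytoskeleton, moved most. Its log ratio on the 8 arrays was 0.0986 at the lowest, 0.159 at the median and 0.263 at the highest. All 8 arrays thus lay above 0, in both dye orientations. The fit gave 0.173 ± 0.0252 (SE), or 1.49-fold on base 10 and 1.13-fold on base 2, with an adjusted p of 0.000187. Its 2 features gave 0.143 and 0.204, and both passed on their own.

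Aqp5, the water channel of the apical membrane of alveolar type 1 cells, had log ratios of -0.0130 at the lowest, 0.0926 at the median and 0.265 at the highest. The arrays fell apart: 4 lay between 0.179 and 0.265, and the other 4 between -0.0130 and 0.00665. Arrays of both dye orientations were on each side of that gap, but not evenly. The median was 0.00559 over the 4 arrays with hypoxia in Cy5 and 0.195 over the 4 with hypoxia in Cy3. The fit gave 0.111 ± 0.0281 (1.29-fold or 1.08-fold; adjusted p 0.0184).

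Gprc5a, an orphan receptor with 7 membrane passes that acts as a tumour suppressor in mouse lung, ranged from 0.00584 through a median of 0.0997 to 0.122 and lay above 0 on all 8 arrays. The fit gave 0.0756 ± 0.0190, or 1.19-fold and 1.05-fold for the 2 bases, with an adjusted p of 0.0180. Its 2 features did not give the same answer: 1 had a log ratio of 0.138 with an adjusted p of 0.00339, and the other 0.0132 with an adjusted p of 0.776.

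Pdpn and Ager did not pass. Pdpn, or podoplanin, is the mucin-type glycoprotein also called T1-alpha, which lymphatic endothelium carries as well. It had -0.139 at the lowest, 0.0284 at the median and 0.368 at the highest, and lay above 0 on 5 of 8 arrays (0.0796 ± 0.0488; adjusted p 0.436). Ager, which encodes RAGE, the receptor for advanced glycation end products that is abundant on the basal membrane of these cells, had -0.197, 0.122 and 0.404 and lay above 0 on 5 of 8 arrays as well (0.0997 ± 0.0575; adjusted p 0.397).

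For Ager the sign went largely with the dye even after its fitted dye effect of -0.0551 (adjusted p 0.397) had been removed. The 4 arrays with hypoxia in Cy5 gave 0.111 to 0.404, and of the 4 with hypoxia in Cy3, 1 gave 0.359 and 3 gave -0.197, -0.130 and -0.108. Both genes also varied more than most from array to array: the residual SD was 0.169 for Ager and 0.143 for Pdpn, at percentiles 95.8 and 90.3 of named genes. For Gprc5a it was 0.0521, at percentile 16.2. The intervals of both differences include 0 and also values as large as the estimate of Clic5. They ran from -0.0197 to 0.179 for Pdpn and from -0.0174 to 0.217 for Ager (95%).

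Of the secreted products, Igfbp2 rose in hypoxia and Spock2 did not pass. Igfbp2, which binds insulin-like growth factors and marks mature alveolar type 1 cells in mice, had -0.0291, 0.180 and 0.209 as its lowest, median and highest value. It lay above 0 on 7 of 8 arrays, and the 7 were all at 0.0822 or more. The fit gave 0.144 ± 0.0268 (1.39-fold or 1.11-fold; adjusted p 0.00204). Spock2, or testican-2, a proteoglycan of the extracellular matrix, lay above 0 on 8 of 8 arrays, from 0.0566 through 0.102 to 0.159. Its fit gave 0.102 ± 0.0342 and missed the threshold, with an adjusted p of 0.0901. Its 8 arrays had the narrowest range of the 9 genes, while its residual SD over all arrays was 0.0990. Of the 9 genes, 3 (Clic5, Gprc5a and Spock2) lay above 0 on all 8 arrays, as did 1.83% of all entries.

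Inside the cell, Hopx, an atypical homeodomain protein that does not bind DNA itself, had -0.00661, 0.152 and 0.342. It lay above 0 on 7 of 8 arrays and just missed the threshold (0.141 ± 0.0420; adjusted p 0.052). Rtkn2 had -0.0503, 0.105 and 0.221 and lay above 0 on 7 of 8 arrays. Its fit gave 0.105 ± 0.0302 (1.27-fold or 1.08-fold; adjusted p 0.0432), and its 3 features gave 0.0678, 0.108 and 0.139, none of which passed alone.

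How many members passed depended on single arrays. Clic5 and Igfbp2 passed whichever of the 38 arrays was left out. Aqp5 and Gprc5a passed in 34 of 38 such fits, Rtkn2 in 32, Hopx in 9 and Spock2 in 1. The count was 2 (Clic5 and Igfbp2) without array 1 of hypoxia in Cy3 and normoxia in Cy5, 2 (the same pair) without array 3 of normoxia in Cy3 and hypoxia in Cy5, and 3 (Clic5, Igfbp2 and Hopx) without array 3 of hypoxia in Cy3 and normoxia in Cy5. In a fit of the 8 direct arrays alone, 2 members passed, Clic5 and Spock2, and 103 entries against 1102.

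Of 16 other genes of alveolar type 1 cells, 14 lay above 0 with a median of 0.0610, and 4 rose. These were Ndnf (0.124; adjusted p 0.0312), Agrn (0.0557; 0.0405), which encodes the basement membrane proteoglycan agrin, Vegfa (0.125; 0.0414), the endothelial growth factor and a known target of hypoxia-inducible factors, and Lama3 (0.148; 0.0429), a laminin chain. Of 10 regulators of alveolar type 1 identity, 5 lay above 0 and 5 below, the median was -0.000945, and none passed. Nkx2-1 had the smallest p among them (0.0839; adjusted p 0.0648).

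Of 8 measured genes of the transitional state between alveolar type 2 and type 1 cells, 5 lay above 0 and 1 passed, the tight junction gene Cldn4, which was lower in hypoxia (-0.133; adjusted p 0.0165). Of 12 ligands and partners of the members, 4 lay above 0 and 1 passed. This was Diaph1, whose product binds the cytoplasmic tail of RAGE (0.0722; adjusted p 0.0407). Of 17 paralogs of the members, 8 lay above 0, the median was -0.0120, and none passed.

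Of 14 markers of alveolar type 2 cells, 7 rose in hypoxia. All 14 lay above 0, with a median of 0.0976. Sftpb, a surfactant protein, had the smallest p (0.215; adjusted p 0.00167), followed by the lung chemokine Cxcl15 (0.117; 0.0103), the surfactant lipid transporter Abca3 (0.0967; 0.0110) and the protease Napsa (0.118; 0.0234). The mean of the 14 was above 0 on 8 of 8 arrays (lowest 0.0506, median 0.0886, highest 0.158). Of 9 smooth muscle markers, 8 lay below 0 with a median of -0.0947, and 4 genes of the contractile apparatus fell, namely Cnn1 (-0.190; adjusted p 0.00181), Actg2 (-0.172; 0.00352), Acta2 (-0.116; 0.00433) and Tagln (-0.103; 0.0306). Their mean lay below 0 on 7 of 8 arrays (lowest -0.169, median -0.0924, highest 0.00570).

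With the mean of the alveolar type 2 markers on each array as a covariate, 0 of the 9 members passed, and 23 entries were called. The log ratio of Clic5 was then 0.130 ± 0.0383 (adjusted p 0.168), that of Igfbp2 0.101, of Rtkn2 0.0611 and of Spock2 0.0756. Aqp5 came to 0.0552, Ager to 0.0526 and Gprc5a to 0.0124. Pdpn, at -0.0485 ± 0.0709, and Hopx, at -0.0195 ± 0.0551, lay below 0. The covariate itself lay above 0 on 8 of 8 arrays of hypoxia over normoxia, so this fit cannot tell tissue share from hypoxia. The SE of Clic5 was 0.0252 without it. The part that the share of alveolar or muscle tissue in a dissection has in the members' values was not tested.

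Markers of endothelium passed in both directions. Of 11 general endothelial markers, 8 lay above 0. The receptor Robo4 (0.171; adjusted p 0.00632), the sialomucin Emcn (0.201; 0.00988) and the VEGF receptor Kdr (0.130; 0.0181) rose, and Vwf, the clotting factor that is rich in larger vessels, fell (-0.113; 0.00164). Of 7 markers of aerocytes, the capillary cells that face alveolar type 1 cells, 4 lay above 0, and the transcription factor Tbx2 (0.0987; 0.00232) and the peptide ligand Apln (0.156; 0.00706) rose. In the remaining lists single genes fell. Of 5 lymphatic markers, 4 lay above 0, and Lyve1, a hyaluronan receptor, fell (-0.251; 0.000102). Of 7 fibroblast markers 2 lay above 0, and the collagen gene Col3a1 fell (-0.0841; 0.0228). Of 7 macrophage markers 1 lay above 0, and the integrin gene Itgam fell (-0.119; 0.0306). Of 9 airway and 5 mesothelial markers, 6 and 2 lay above 0, and none passed.

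**Figure D2:**
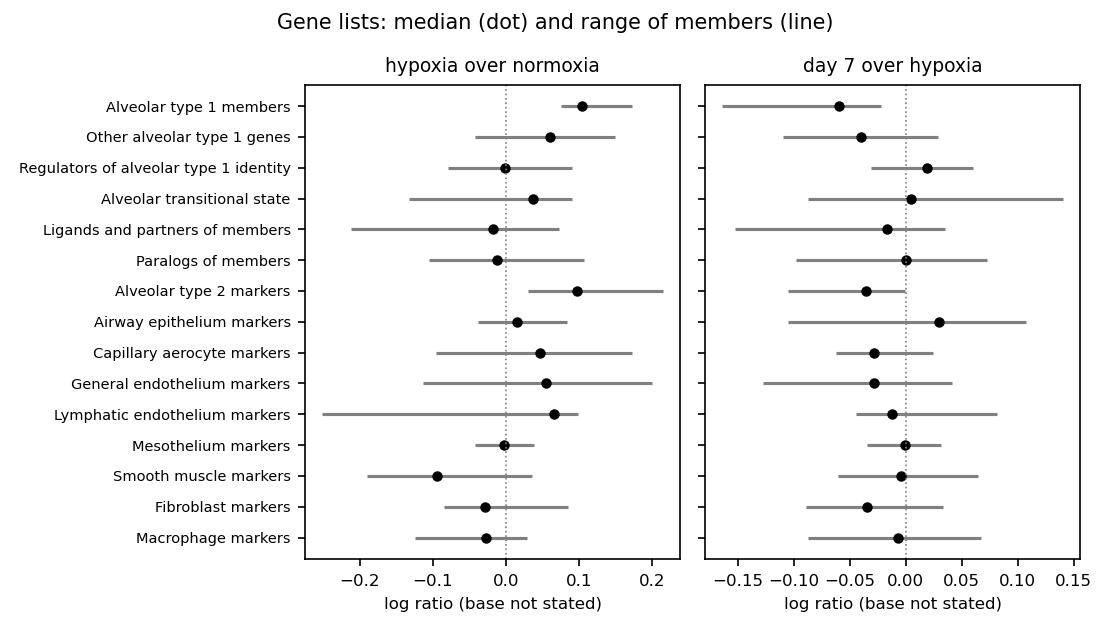
Median (dot) and range (line) of the log ratios of each gene list, for hypoxia over normoxia on the left and for day 7 over hypoxia on the right (horizontal axis, base not stated). Both alveolar lists lie above 0 on the left (medians 0.105 and 0.0976) and below 0 on the right (medians -0.0592 and -0.0352), and smooth muscle lies below 0 on the left.

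The arrays of days against hypoxia asked whether the return to normal oxygen undid this. They share no array with those of hypoxia against normoxia, and whether they share hypoxia animals could not be checked. None of the 9 genes passed on any day. The background was small too: the shares of entries called in either direction were 0%, 0.013%, 0.0163% and 0% for days 1, 3, 7 and 14. An unadjusted p under 0.05 was reached by 1, 1, 3 and 1 of the 9 on days 1, 3, 7 and 14, and by 3.97%, 9.22%, 6.48% and 4.03% of entries. The members' fitted log ratios were mostly below 0: 8 of 9 at days 1 and 3 and 9 of 9 at days 7 and 14, with medians of -0.0375, -0.0153, -0.0592 and -0.0413. Over all entries 47.6%, 48.4%, 52% and 51.6% lay above 0 on these days. The days share 1 fit with hypoxia as its base, so their counts are not independent repeats.

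**Figure D3:**
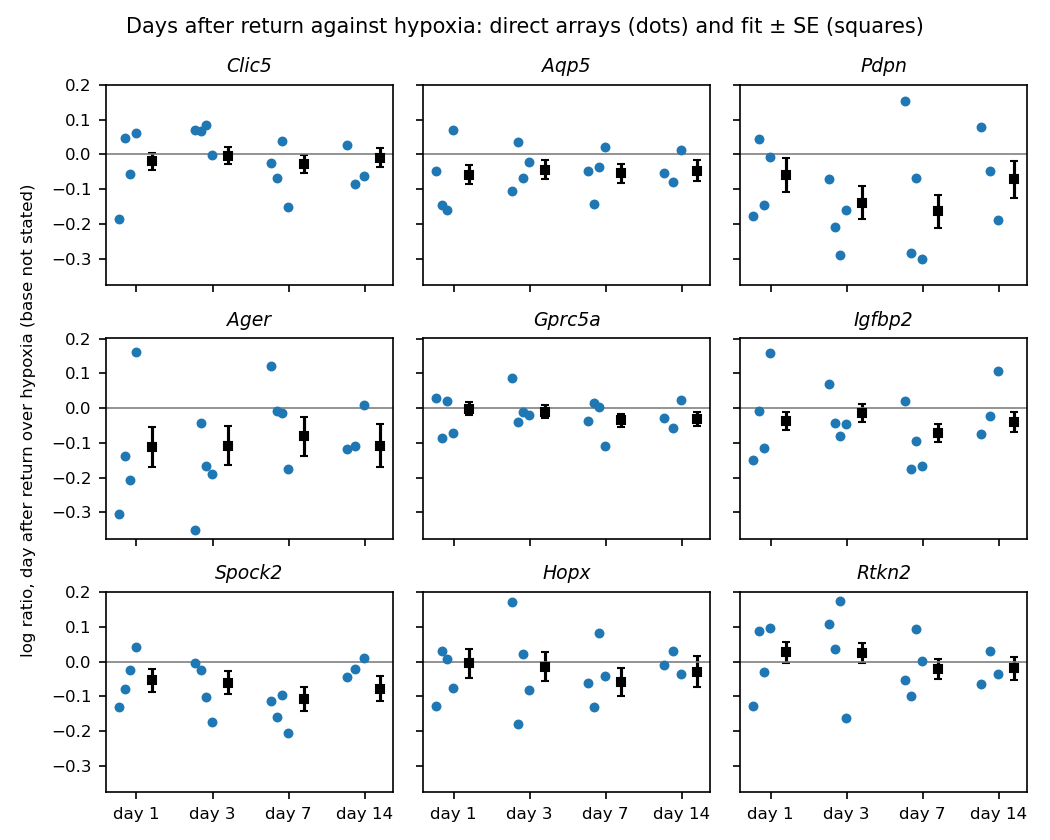
Log ratio of each day after the return over hypoxia (vertical axis, base not stated) on the direct arrays (dots; 4 on days 1, 3 and 7 and 3 on day 14), with the fit ± SE (squares). Ager spreads widest on day 1, Hopx on day 3 and Pdpn on days 7 and 14, and Spock2 lies below 0 on all 4 arrays of day 7.

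Among cell surface genes, Clic5 had fitted values close to 0 after the return. Its log ratios on the arrays of day 1 were -0.186, 0.0465, -0.0570 and 0.0607, and those of day 3 were 0.0718, 0.0677, 0.0851 and -0.000805. Those of day 7 were -0.0234, -0.0684, 0.0387 and -0.152, and those of day 14 were 0.0287, -0.0838 and -0.0617. No day had all arrays on 1 side of 0. The fit gave -0.0201, -0.00426, -0.0275 and -0.00894 for days 1, 3, 7 and 14 over hypoxia, each with an SE between 0.0245 and 0.0270.

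Pdpn had the lowest fitted values of the 9 on days 3 and 7, and Ager on days 1 and 14. On day 3 its 4 arrays gave -0.0698, -0.207, -0.288 and -0.160, all below 0. On day 7 they gave 0.153, -0.284, -0.0666 and -0.301, so that 1 array lay on the other side. The fit gave -0.139 ± 0.0474 on day 3 (p 0.0058, adjusted p 0.345) and -0.164 ± 0.0479 on day 7 (1.46-fold or 1.12-fold lower; p 0.0016, adjusted p 0.498). Without the high array of day 7 the value for that day was -0.210, still with an adjusted p of 0.169 or more in every fit that left out 1 array.

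Ager was lower on all 4 arrays of day 3, at -0.350, -0.0424, -0.167 and -0.189. Day 1 gave -0.304, -0.137, -0.209 and 0.163, and day 7 gave 0.122, -0.00729, -0.0152 and -0.176. The fits of days 1, 3, 7 and 14 were -0.112, -0.109, -0.0810 and -0.109 with SEs of 0.0559 to 0.0615, and adjusted p values were 0.561 or more. Aqp5 had -0.0577, -0.0440, -0.0539 and -0.0471, and Gprc5a -0.00211, -0.0107, -0.0354 and -0.0305, none of which passed.

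Of the secreted products, Spock2 lay below 0 on each array of days 3 and 7. Its 4 arrays of day 7 gave -0.112, -0.160, -0.0950 and -0.206, and its 4 arrays of day 3 gave -0.00476, -0.0246, -0.103 and -0.174. The fit gave -0.108 ± 0.0336 on day 7 (1.28-fold or 1.08-fold lower; p 0.00284, adjusted p 0.544). Pdpn, Ager and Spock2 were the 3 of 9 members below 0 on every array of day 3, where 9.2% of all entries were, and Spock2 the 1 of 9 on day 7, where 6.83% of entries were. Igfbp2 on day 7 gave 0.0191, -0.175, -0.0935 and -0.166, with a fit of -0.0724 ± 0.0263 (p 0.00939, adjusted p 0.627).

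Of the intracellular members, Hopx had fits of -0.00515, -0.0143, -0.0592 and -0.0287 on days 1, 3, 7 and 14. On day 3 its arrays ran from -0.179 to 0.172. Rtkn2 was the member with positive fits on days 1 and 3, at 0.0266 and 0.0249, and had -0.0216 and -0.0198 on days 7 and 14. Its 3 features differed in sign, at -0.0175, 0.0301 and 0.0673 on day 1 and -0.0412, 0.00776 and 0.108 on day 3.

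Between days, 0 members passed in any of the 4 steps measured. Background shares in either direction were 0% for day 3 against day 1, 0.00979% for day 7 against day 3, 0% for day 14 against day 7 and 0% for day 14 against day 1. At an unadjusted p under 0.05 the shares of entries were 4.63%, 10.2%, 3.66% and 2.79%, and Igfbp2 was the 1 member there, for day 7 against day 3 (-0.0571 ± 0.0279; p 0.0485, adjusted p 0.486). Its 4 arrays there ran from -0.0767 to -0.0217 and thus all lay below 0. In that step 8 of 9 members were below 0, and in the step of day 14 against day 7, 8 of 9 were above 0 (medians -0.0247 and 0.0185), where 52.9% and 49% of all entries were above 0.

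The days were also set against normoxia. These values add the difference of hypoxia from normoxia to that of the day from hypoxia, so that all 4 days share the first of these. Clic5 passed on day 3 (0.169 ± 0.0351; adjusted p 0.0191), where 0.783% of entries were called in either direction and 0.3% higher. This call depended on single arrays and on the setting: its adjusted p was 0.0508 without array 2 of hypoxia in Cy3 and day 3 in Cy5, 0.0523 without array 1 of day 3 in Cy3 and hypoxia in Cy5, 0.0521 with arrays scaled to 1 spread and 0.294 with the alveolar type 2 covariate. Of the 2 features of Clic5, 1 gave 0.238 on day 3 (adjusted p 0.0252) and the other 0.0998 (adjusted p 0.215). On days 1, 7 and 14 the gene had 0.153, 0.146 and 0.164, with adjusted p values of 0.0663, 0.162 and 0.083. No other member passed on any day, where 0.111%, 0.0228% and 0.0261% of entries were called on days 1, 7 and 14. An unadjusted p under 0.05 was reached by 5, 5, 1 and 2 members on days 1, 3, 7 and 14, and by 11.4%, 14.3%, 8.5% and 8.79% of entries.

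**Figure D4:**
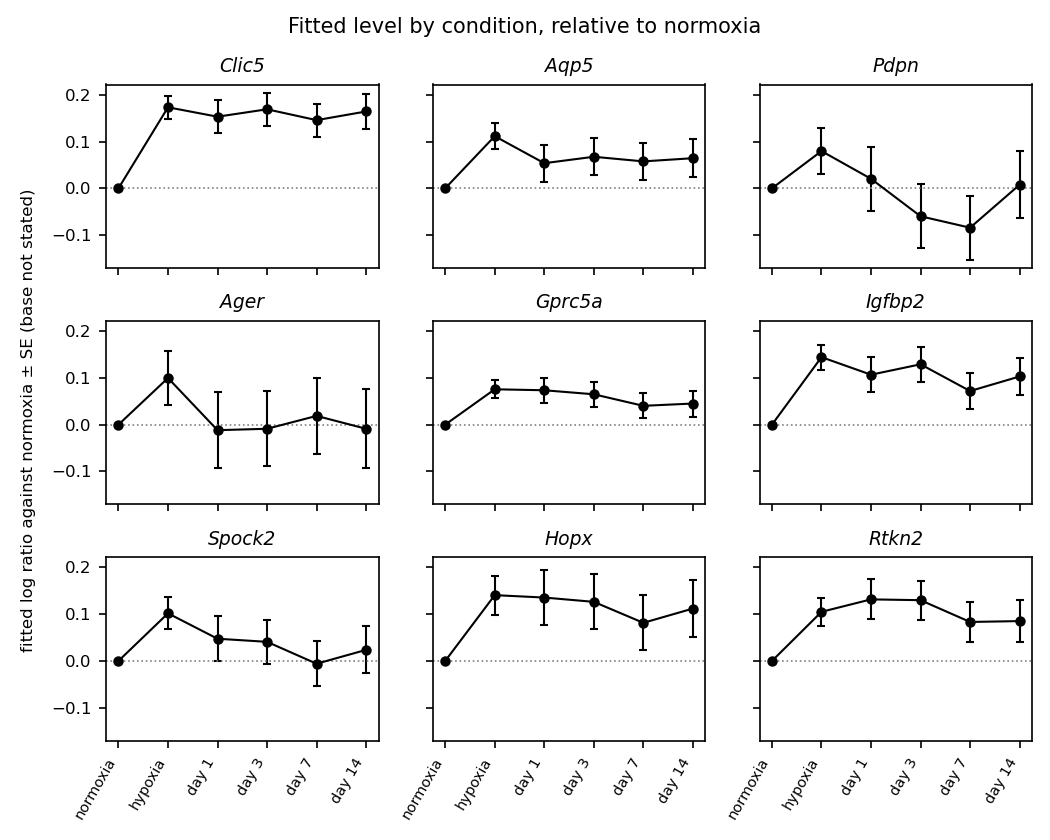
Fitted log ratio of each gene against normoxia ± SE (vertical axis, base not stated) in normoxia (set to 0), hypoxia and days 1 to 14 after the return. Clic5 lies between 0.146 and 0.173 in hypoxia and on the 4 days, while Ager lies between -0.0119 and 0.0187 on the 4 days.

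The order of the 6 conditions differed by gene. Hypoxia was the highest for 8 of the 9, and day 1 for Rtkn2 as the mean of its features (0.132 over normoxia, against 0.105 for hypoxia). Normoxia was the lowest for Clic5, Igfbp2, Aqp5, Gprc5a, Hopx and Rtkn2. For Clic5 the order down was hypoxia, day 3, day 14, day 1, day 7 and normoxia. For Igfbp2 the levels over normoxia were 0.144, 0.129, 0.107, 0.103 and 0.0718 in hypoxia and on days 3, 1, 14 and 7. For Pdpn, Spock2 and Ager the lowest condition was not normoxia: Pdpn was at -0.0842 and Spock2 at -0.00592 on day 7, and Ager at -0.0119 on day 1. No neighbours in any gene's order differed past the adjusted threshold, and the smallest p between neighbours was that of Clic5 on day 7 against normoxia (p 0.000215, adjusted p 0.162).

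On day 14 the level over normoxia was 94.8% of that in hypoxia for Clic5, 81.1% for Rtkn2, 79.6% for Hopx and 71.4% for Igfbp2, on the log scale. For Gprc5a and Aqp5 it was 59.7% and 57.8%. For Spock2, Pdpn and Ager it was 23.3%, 9.70% and -8.91%. These shares carry the errors of both differences, and whether the genes differ from each other in the return was not tested.

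On day 7 over hypoxia, 14 of 16 other alveolar type 1 genes and 14 of 14 alveolar type 2 markers lay below 0, with medians of -0.0399 and -0.0352, and none passed. On day 14 over normoxia, 12 of 16 and 13 of 14 lay above 0, with medians of 0.0437 and 0.0749. For the smooth muscle markers on day 14 over normoxia, 9 of 9 lay below 0 with a median of -0.112. Over all entries, 47.3% lay above 0 on day 14 over normoxia.

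Across the 38 arrays the members resembled each other. Likeness was measured as the cosine between the log ratios of 2 genes over the arrays after removal of the dye effect, which is 1 for the same pattern and 0 for unrelated ones. All 36 pairs of members lay above 0, from 0.193 to 0.648 with a median of 0.411. With the fitted conditions removed, so that what remains is variation between animals of 1 condition and error, 31 of 36 pairs lay above 0, from -0.159 to 0.551 with a median of 0.169. Against all named genes, the 95th percentile of a member's likeness lay between 0.301 and 0.371, below the median of the pairs, and between 0.280 and 0.366 with conditions removed, above that median. Single members could go the other way. The median likeness of Ager to the other members (0.307) was just below its own 95th percentile (0.311). With conditions removed, that of Rtkn2 (0.323) was above its own (0.308). Clic5 and Rtkn2 were the closest pair at 0.648, and Pdpn and Ager were the closest once conditions were removed, at 0.551. Genes of 1 array share its RNA and its dissections, and whether arrays share animals could not be checked, so these values are a description.

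**Figure D5:**
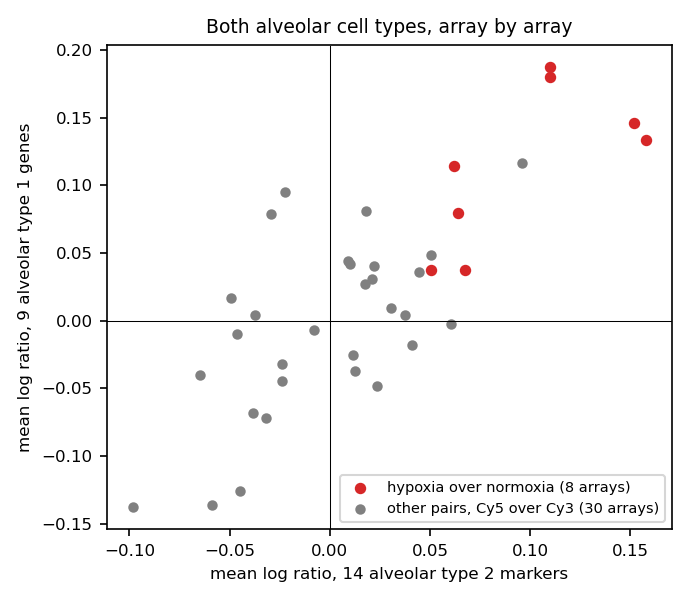
Mean log ratio of the 9 alveolar type 1 genes (vertical axis) against that of 14 alveolar type 2 markers (horizontal axis) on each of the 38 arrays, with the 8 arrays of hypoxia over normoxia in red and the other 30 in grey as Cy5 over Cy3 (base not stated). All 8 red points lie above 0 on both axes.

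The mean of the 9 genes was most like that of the 16 other alveolar type 1 genes, with a cosine of 0.863 (0.700 with conditions removed). It was 0.796 (0.516) for alveolar type 2 markers, 0.694 (0.575) for general endothelial markers, 0.582 (0.325) for aerocyte markers, -0.403 (-0.233) for macrophage markers and -0.482 (-0.265) for smooth muscle markers. The regulators of identity stood at 0.102 (0.173). Among single named genes outside the 9, the closest to their mean were Gpx3, a secreted glutathione peroxidase (0.818), Spaca4 (0.778), Mfap4, a protein of elastic fibres (0.767), Emcn (0.727), Tbx2 (0.725), the alveolar type 2 phosphate transporter Slc34a2 (0.721), Iqgap1 (0.721) and Grcc10 (0.719).

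Member by member the closest genes were of several kinds. Clic5 was closest to F2r, the thrombin receptor (0.841), and Trib2 (0.783). Hopx was closest to Cldn18, the tight junction gene of the alveolar epithelium (0.811), and Sftpc, the surfactant protein of alveolar type 2 cells (0.744). Gprc5a was closest to Slc34a2 (0.761) and Tbx2 (0.754), and Igfbp2 to Mtss2 (0.703) and the sodium channel subunit Scnn1a (0.684). For Aqp5 the closest were Hsd11b1 (0.687) and Prkcsh (0.672), for Pdpn Ripply3 (0.617) and Dipk2b (0.616), for Spock2 Coq8b (0.746) and Antkmt (0.710), for Ager Crhr1 (0.660) and Map7d1 (0.656), and for Rtkn2 Elk4 (0.718) and Usp33 (0.698). The closest gene of a member was thus itself a listed alveolar gene for Hopx and Gprc5a.

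Features of 1 gene did not always follow each other across the arrays. Their correlation, over 38 arrays and all conditions, was 0.806 for the 2 features of Pdpn, 0.537 for Clic5 and 0.447 for Gprc5a. Among the 3 features of Spock2 it ran from 0.146 to 0.457 and among those of Rtkn2 from 0.211 to 0.497. Values of Clic5, Gprc5a, Spock2 and Rtkn2 above are means over features that agreed only in part.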

How the data were processed

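Each of the 38 arrays compares RNA of small lung vessels from 1 mouse in Cy3 with that from 1 mouse in Cy5. Each dye of each array was counted as 1 mouse, 76 in all, without an animal identifier to check this. The fit treats the arrays as independent. Groups and replicate numbers came from the labels. The 9 members and all gene lists were chosen with earlier results of these data known.

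The authors deposited 1 log ratio per feature and array. These were read as log10 ratios, since the deposited table states neither base nor direction. The submitters' processing notes name limma, without a version. How background and normalization were handled is not given in the sources used here. Spot brightness and scan dates were not used, so dim features were kept and batches were not tested. Array medians ran from -0.00306 to 0.00678 and array SDs from 0.0742 to 0.192.

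After 2 of 45220 features were dropped for a missing value, symbols were taken from the platform annotation (1 symbol for 33652 features, several for 56, none for 11510). Features sharing a symbol were averaged. The 30653 resulting entries comprise 19087 named genes and 11566 unnamed features.

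The fit (limma 3.58.1, lmFit and eBayes, under R 4.3.3) used every array, an intercept for the dye and 5 terms for the conditions. Its residual degrees of freedom were 32, and the residual SD had a median of 0.0821 over entries. Tests were two-sided. Adjustment was by Benjamini-Hochberg over all entries within each of 13 contrasts, at 0.05. All 9 members are named. Up to 4 genes that passed are named per other list and comparison, by smallest p. For likeness, the 8 genes closest to the members' mean and the 2 closest to each member are named. Nkx2-1 was named after its values were seen. The steps were tested on simulated data.

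Alternatives changed the dye term, the scaling or centring of arrays, the use of single features, array weights, robust empirical Bayes, the replicate number as a block, the alveolar type 2 mean as a covariate, the use of direct arrays alone, and the arrays included. Replicate numbers in the labels run within each pair of conditions and dyes, so they were not taken to pair the samples. The median residual correlation was -0.0160 between arrays of the same number and -0.0292 between others. These medians pool arrays of unlike conditions and cannot exclude a pairing.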

Additional observations from a re-analysis of the deposited data

Results flagged for a closer look

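In 63 sets of 4 to 8 arrays, 1 per member and comparison with at least 4 direct arrays, 2 held an array far from the others. Chance marks about 1 in 20 such sets. Both were the same array of day 3 in Cy5 against day 1 in Cy3, replicate 2, in opposite directions. For Gprc5a it gave a log ratio of day 3 over day 1 of 0.0412, where the other 3 arrays lay between -0.0757 and -0.0564. For Pdpn it gave -0.158, where the other 3 lay between -0.0976 and -0.0872. Neither gene had a called difference in that comparison.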

How the results depend on the processing

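Counts here are members, or entries where so named, past the adjusted threshold. Leaving out 1 array at a time gave 2 to 6 members for hypoxia against normoxia, and 0 to 1 on day 1, 0 to 2 on day 3 and 0 to 1 on day 14 against normoxia. It gave 528 to 1316 entries for hypoxia against normoxia, 0 to 8 for day 3, 0 to 7 for day 7 and 0 to 1 for day 14 against hypoxia, 0 to 6 for day 7 against day 3, and 1 to 98, 56 to 335, 3 to 12 and 0 to 41 for days 1, 3, 7 and 14 against normoxia. Clic5 on day 3 against normoxia passed in 36 of 38 of these fits. It was lost without array 2 of hypoxia in Cy3 and day 3 in Cy5 (56 entries left) and without array 1 of day 3 in Cy3 and hypoxia in Cy5 (57 left).

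With arrays scaled to 1 spread, 0 members passed for day 3 against normoxia, and entries were 75 there, 15 for day 14 against normoxia, 2 for day 3 against hypoxia and 0 for day 7 against day 3. Array weights gave 1 member (Clic5) on each of days 1 and 14 against normoxia, and entries of 152, 100 and 65 for days 1, 3 and 14 against normoxia, 0 for day 3 and 1 for day 7 against hypoxia, 10 for day 3 against day 1 and 0 for day 7 against day 3. The alveolar type 2 covariate gave 0 members for hypoxia and for day 3 against normoxia. Its entries were 23 for hypoxia, 1, 3, 4 and 1 for days 1, 3, 7 and 14 against normoxia, and 8 and 0 for days 3 and 7 against hypoxia. It turned the sign of 10 of the members' 45 log ratios against normoxia, all to below 0: Hopx in hypoxia (-0.0195) and on days 1 (-0.0100), 3 (-0.00201), 7 (-0.0142) and 14 (-0.0118), Pdpn in hypoxia (-0.0485) and on days 1 (-0.0960) and 14 (-0.0913), Ager on day 7 (-0.00941) and Gprc5a on day 14 (-0.00372). It also turned 17 of 72 in the other comparisons. Direct arrays alone gave 2 members and 103 entries for hypoxia against normoxia, and 0 entries for days 3 and 7 against hypoxia and for day 7 against day 3, with fewer samples in each fit.

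Day 14 against normoxia had 8 entries, and had 15 without the dye term, 13 with arrays centred on their medians, 17 with single features and 3 with robust empirical Bayes. Without the dye term day 1 against normoxia had 18. Single features gave 1 entry for day 3 against day 1 and 10 for day 7 against day 3. Without both arrays of day 3 in Cy3 and day 1 in Cy5, an alternative chosen after seeing the data, entries were 1 for day 3 against hypoxia and 0 and 3 for days 1 and 14 against normoxia. With the replicate block, a number not taken to pair the samples here, members stayed at 5 for hypoxia against normoxia. Entries were then 2 for day 3 against hypoxia and 4 for day 14 against normoxia. Of the 38 arrays, 14 correlated best with 1 of their own number. Causes of these changes were not tested.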
